A study of Homo sapiens with 6 samples.

Results

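The genes described here are 10 members of the MYC, MAX and MLX network of transcription factors: MYC, MYCN, MAX, MXD1, MXD3, MXD4, MNT, MGA, MLX and MLXIP. They were taken by symbol from the tables of 50550 gene rows, and all 10 were found and passed the filter on low counts that left 21933 rows for testing. RNA was sequenced from 6 libraries of U2OS, an established human osteosarcoma cell line. One group of 3 libraries is titled Lv_LINC00673 and carries the genotype label LINC00673, a long noncoding RNA on chromosome 17, and the other group of 3 is titled Lv_NC with the genotype label NC. The series asks what loss of LINC00673 does to gene expression, and its design text contrasts knockdown cells with wild-type ones. The labels give no vector, dose, time, clone or culture for any library, and do not spell out Lv or NC, so any effect of a vector carried by one group alone cannot be told apart from that of the knockdown. The libraries of a group are not said to be separate cultures, so the p-values reflect only variation among libraries that could be technical repeats. In such bulk RNA, fewer cells of a kind and less RNA per cell cannot be told apart.

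MYC family proteins bind DNA as dimers with MAX at a short site called the E-box and raise transcription of genes for ribosome assembly, nucleotide synthesis and cell growth. MXD proteins, MNT and MGA pair with the same MAX and compete for those sites, most of them recruiting corepressors. MLX is a second hub that pairs with MLXIP, also called MondoA, a sensor of glucose-derived metabolites, and with some MXD proteins. MYC is amplified or highly expressed in many osteosarcomas.

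The site itself, CACGTG, lies in some promoters of the network. RefSeq promoter windows (GRCh38.p14, 250 bases before to 50 after each start site) were on hand for 12 of 13 network genes, the 10 members plus MYCL, MXI1 and MLXIPL. Of these 12, 3 held CACGTG, which reads the same on both strands, against 8.77% of all 27305 genes with a window. The site of each is printed with up to 20 bases on either side and in capitals, followed by that of ARRDC4, a target of MLXIP and MLX described further on. The stretches lie at chr4:2262322-2262359 (minus strand), chr17:2401228-2401273 (minus strand), chr17:42567030-42567075 (plus strand) and chr15:97960473-97960518 (plus strand).
MXD4: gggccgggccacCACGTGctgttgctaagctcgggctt
MNT: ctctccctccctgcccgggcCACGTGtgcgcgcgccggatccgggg
MLX: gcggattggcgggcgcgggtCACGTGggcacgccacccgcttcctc
ARRDC4: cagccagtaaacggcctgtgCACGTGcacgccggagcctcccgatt
These letters describe sequence only and say nothing of which protein was bound. Other genes listed with MLXIP and MLX were scanned too. HK2, PFKFB3 and PKLR also held the site, while TXNIP, TFEB, TFE3, MITF and ACACA did not. As described further on, HK2 and PFKFB3 fell, and TXNIP rose without the site. The part of the site in these changes was not tested.

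Among the members, MYC and MLX fell and MGA rose in Lv_LINC00673 relative to Lv_NC, while the other 7 did not pass the test. The 3 called members out of 10 compare with 26.8% of all tested rows called by edgeR's quasi-likelihood test at an adjusted p of 0.05, so the share called is near the background. By direction, 2 of 10 were lower against 12.5% of all rows, and 1 of 10 was higher against 14.3%. In TMM-normalised CPM (counts scaled to library size) the groups did not overlap at 4 of the 10 genes, against 45.1% of all tested rows.

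Libraries differed in ways that bear on every fold change below. Totals ran from 61815841 to 71237493 counts in Lv_LINC00673 and from 76814723 to 87227980 in Lv_NC. Fold changes followed gene length and GC content: over 11846 genes the median log2 fold change was 0.50 in the decile with the longest transcripts and -0.34 in the shortest, and 0.56 in the decile of lowest GC content and -0.26 in the highest. A second fit, referred to below as the offset, corrects every library for both features. It covers 18141 genes and calls 30.7% of them, 14.7% higher and 15.9% lower. LINC00673 itself had 6.55, 6.23 and 6.38 CPM in Lv_LINC00673 and 9.16, 9.27 and 7.08 in Lv_NC, without overlap, but did not pass (log2 fold change -0.41 with SE 0.16, adjusted p = 0.0924). LINC00511 overlaps it over 189483 bases, its whole length, and with the strand setting unknown reads of both genes cannot be told apart, which limits this check of the labels. Of 8 mesenchymal and bone markers 6 passed the filter, TWIST1 was at 0 and COL1A2 reached at most 0.178 CPM. Their summed levels were 3965 to 4363 CPM in Lv_LINC00673 and 3099 to 3271 in Lv_NC. Of the 6, 4 were called higher and 1 lower, against 14.3% and 12.5% of all tested rows. The higher ones were FN1, RUNX2, ALPL and VIM, at log2 fold changes of 1.52, 1.25, 0.50 and 0.34. The lower one was SPARC (log2 fold change -0.36, adjusted p = 0.0141). These 5 were named after their values were seen. Summed blood markers stood at 58.6 to 70.1 CPM in Lv_LINC00673 and 57.2 to 77.8 in Lv_NC, nearly all of it CD68, a lysosomal gene, while PTPRC reached at most 0.178 CPM and LYZ and HBB were at 0. Summed epithelial markers stood at 4.39 to 4.86 CPM in Lv_LINC00673 and 3.83 to 4.06 in Lv_NC, and endothelial markers at 4.83 to 6.18 CPM in Lv_LINC00673 and 3.49 to 4.14 in Lv_NC. Neural and muscle markers summed to 21.2 to 23.6 CPM in Lv_LINC00673 and 27.4 to 29.3 in Lv_NC, with MYH7 at 0. Of these RBFOX3, a neuronal splicing factor gene named after its values were seen, fell to 16.5, 14.1 and 16.7 CPM in Lv_LINC00673, against 21.7, 21.9 and 22.4 in Lv_NC (adjusted p = 0.023; with the offset 0.097). The part of these markers in the results below was not tested.

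**Figure D1:**
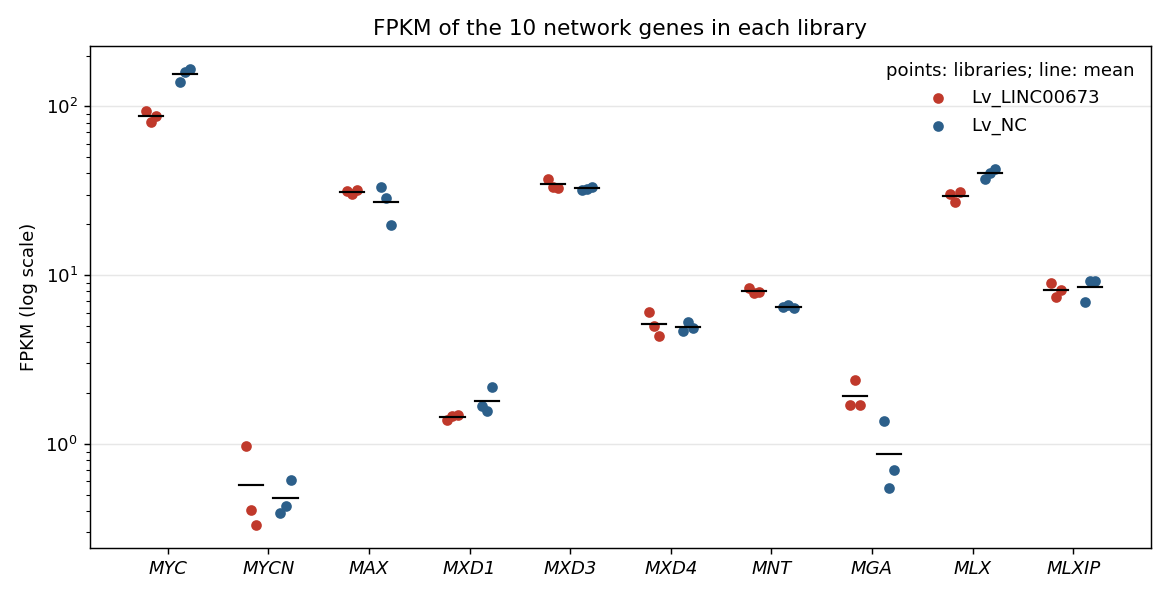
Deposited FPKM values of the 10 network genes (log scale), with 3 Lv_LINC00673 libraries (left of each pair) and 3 Lv_NC libraries; lines mark means. MYC lies between 81.2 and 93.3 FPKM in Lv_LINC00673 and between 140.3 and 167 in Lv_NC, and MYCN stays below 1 FPKM in all 6.

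MYC, on chromosome 8 from 127735434 to 127742951 (GRCh38), was the most abundant member per length. The deposited values were 93.3, 81.2 and 88.1 FPKM in Lv_LINC00673 and 140.3, 160.3 and 167 FPKM in Lv_NC. Every Lv_LINC00673 library therefore lay well below every Lv_NC library. In normalised counts it averaged 333 ± 31.7 CPM in Lv_LINC00673 and 669 ± 64.7 CPM in Lv_NC (SD, n = 3 each). MYC thus fell to 49.8% of its Lv_NC level (95% interval 42.2 to 58.7%), a log2 fold change of -1.01 (SE 0.10, adjusted p = 0.00243). With the offset the log2 fold change was -0.70 (adjusted p = 0.000509), and MYC passed the test under all 20 alternatives, at log2 fold changes of -1.10 to -0.70 and adjusted p-values of 1.38e-12 to 0.0462.

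The 2 other MYC family genes were expressed far below MYC. MYCN, the neural paralog, had 203, 76 and 65 counts in Lv_LINC00673 and 96, 115 and 132 in Lv_NC. Its first Lv_LINC00673 library was the highest of the 6 and the other two the lowest, so the groups overlapped and the difference did not pass (log2 fold change 0.12 with SE 0.41, adjusted p = 0.85). Without that library the log2 fold change was -0.53 (adjusted p = 0.237). MYCL, the paralog first found in lung cancer and not among the 10, stood at 3.42, 5.09 and 3.51 CPM in Lv_LINC00673 and 6.00, 8.05 and 7.10 CPM in Lv_NC. It fell (log2 fold change -0.82 with SE 0.21, adjusted p = 0.0236), but lost its call in 9 of 20 alternatives. These included the offset (-0.57, adjusted p = 0.0674), library totals alone (0.0671), the FPKM scales (0.116 and 0.112) and omission of Lv_LINC00673 library 1 (0.0559), Lv_LINC00673 library 3 (0.0934), Lv_NC library 2 (0.068) or Lv_NC library 3 (0.0722). MYCN and MYCL each overlap an antisense gene (MYCNOS and AL033527.2), and as no source used here gives the strand setting, their reads cannot be told apart.

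The noncoding gene PVT1 begins downstream of MYC and is often amplified with it. It had 26.3, 24.8 and 27.1 CPM in Lv_LINC00673 and 39.0, 45.8 and 39.6 CPM in Lv_NC, and fell with a log2 fold change of -0.67 (SE 0.11, adjusted p = 0.00577; with the offset -0.33, adjusted p = 0.0145). The other 7 noncoding genes listed around MYC and MYCN, such as CCAT1 and MYCNOS, did not pass the filter. Within 2 Mb of MYC 9 genes were tested, of which 2 fell, PVT1 and LRATD2, and 1 rose, the noncoding gene LINC02912 (log2 fold changes -0.67, -0.75 and 1.90); LRATD2 and LINC02912 were named after their values were seen, and LRATD2 was not called with the offset (adjusted p = 0.051). The median of the 9 was -0.11, against 0.05 over all tested rows. Calls amounted to 22.2% lower and 11.1% higher, against 12.5% and 14.3% over all tested rows.

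MAX, the shared partner, did not pass the test. Its levels were 62.5, 57.5 and 61.7 CPM in Lv_LINC00673 and 70.4, 63.4 and 42.1 CPM in Lv_NC, with the third Lv_NC library the lowest of the 6 and the groups overlapping (log2 fold change 0.05, SE 0.17, 95% interval -0.35 to 0.44, adjusted p = 0.872). Without that library the log2 fold change was -0.15 (adjusted p = 0.378). MAX lies on chromosome 14 and overlaps FNTB, on the opposite strand, over 56552 bases.

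MYC was also set, per length, against genes it pairs or competes with. MYC over MAX in FPKM was 2.97, 2.68 and 2.74 in Lv_LINC00673 and 4.22, 5.63 and 8.46 in Lv_NC, the last of these from the library low in MAX. MYC over the sum of MXD1, MXD3, MXD4 and MNT was 1.76, 1.70 and 1.89 in Lv_LINC00673 and 3.14, 3.49 and 3.56 in Lv_NC. Both ratios separated the groups, and for each an exact two-sided permutation test over libraries gave p = 0.1, the smallest that 3 against 3 allows. That sum alone was 53, 47.7 and 46.7 FPKM in Lv_LINC00673 and 44.7, 46 and 46.9 FPKM in Lv_NC, which overlap (exact permutation p = 0.2). The sum leaves out MGA, at means of 1.93 FPKM in Lv_LINC00673 and 0.873 in Lv_NC, and MXI1, at 11.8 and 10.6. These ratios were chosen after the values were seen, and concern RNA, not protein. With MYC already known to be lower, their separation restates that fall and is no further evidence.

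**Figure D2:**
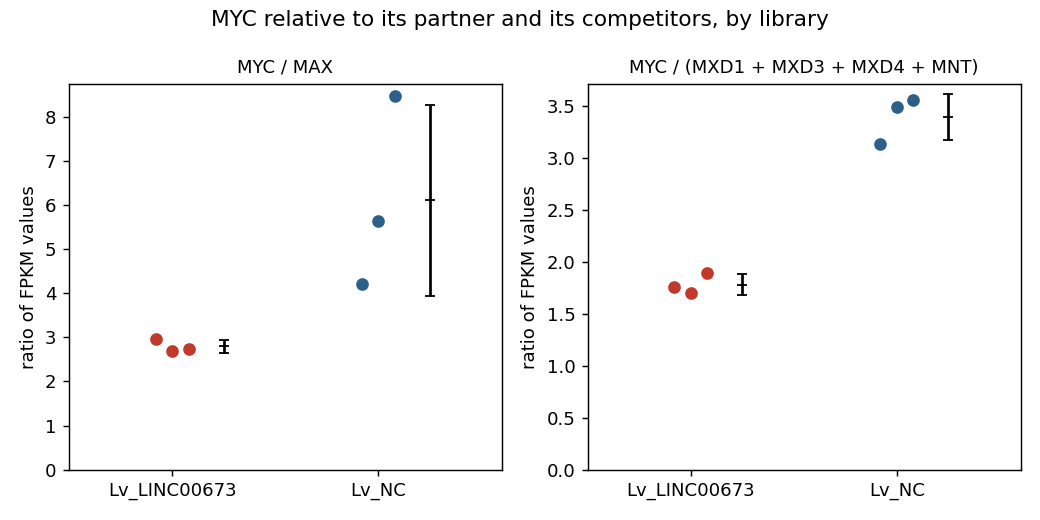
Ratio of FPKM values in each library, MYC over MAX (left) and MYC over the sum of MXD1, MXD3, MXD4 and MNT (right); bars give mean and SD of 3 libraries. The Lv_LINC00673 libraries sit at 2.68 to 2.97 and 1.70 to 1.89, below the Lv_NC libraries at 4.22 to 8.46 and 3.14 to 3.56.

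Of the MXD repressors, none of the 3 members passed the test at the main settings. MXD1, which rises as many cell types stop dividing and differentiate, had 7.78, 7.84 and 8.04 CPM in Lv_LINC00673 and 10.1, 9.75 and 13.1 CPM in Lv_NC. The groups did not overlap, yet the adjusted p was 0.0579 (log2 fold change -0.48, SE 0.16, unadjusted p = 0.0167). The call of MXD1 differed in 3 of 20 alternatives. With the offset its log2 fold change was -0.92 (SE 0.16, adjusted p = 0.00415), and it also passed in DESeq2 (-0.51, adjusted p = 0.0177) and with RLE factors (-0.51, 0.0457).

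MXD3 is the MXD gene tied to S phase. It was the most abundant of the 3 per length, at 37.2, 33.4 and 32.9 FPKM in Lv_LINC00673 and 31.9, 32.5 and 33.4 FPKM in Lv_NC, with overlap. Its sign depended on the scale: the log2 fold change was -0.23 (SE 0.10, adjusted p = 0.127) in counts, 0.08 on the log2(FPKM + 1) scale and 0.07 with the offset (adjusted p = 0.517). Without Lv_LINC00673 library 1 it passed as lower (-0.33, adjusted p = 0.0386). MXD3 shares 1461 bases with PRELID1 on the opposite strand. MXD4 had 23.6, 18.6 and 16.5 CPM in Lv_LINC00673 and 19.7, 22.9 and 20.7 CPM in Lv_NC, the first Lv_LINC00673 library being the highest of the 6 and the third the lowest (log2 fold change -0.11, 95% interval -0.47 to 0.25, adjusted p = 0.652). MXI1, the remaining MXD gene and not among the 10, was at 38.1 ± 2.86 CPM in Lv_LINC00673 and 38.1 ± 5.51 CPM in Lv_NC (SD, n = 3 each; 95% interval of the log2 fold change -0.30 to 0.30).

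MNT, a broadly expressed antagonist of MYC on chromosome 17, gave different pictures in TMM-normalised CPM and in FPKM. After TMM scaling it had 42.5, 36.8 and 38.8 CPM in Lv_LINC00673 and 34.7, 37.9 and 35.1 CPM in Lv_NC, which overlap (log2 fold change 0.13 with SE 0.10, adjusted p = 0.375). In FPKM it was 8.38, 7.79 and 7.91 in Lv_LINC00673 and 6.43, 6.64 and 6.39 in Lv_NC, without overlap. It passed as higher with the offset (0.21 in log2 units, adjusted p = 0.0479) and with library totals alone (0.30, adjusted p = 0.0455), and under none of the other 18 alternatives.

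MGA, the largest protein of the network, carries a T-box domain as well as the MAX-binding one and anchors a Polycomb complex that silences germline genes. Its levels were 19.2, 26.9 and 19.3 CPM in Lv_LINC00673 and 13.4, 7.37 and 9.27 CPM in Lv_NC. All Lv_LINC00673 libraries stood above all Lv_NC libraries, with the second Lv_LINC00673 library highest and the second Lv_NC library lowest. MGA rose to 217% of its Lv_NC level (95% interval 149 to 317%; log2 fold change 1.12, SE 0.24, adjusted p = 0.0121). Its longest transcript has 14439 bases and a GC content of 42%, and the deciles nearest to it had medians over all genes of 0.50 for length and 0.26 for GC content. With the offset its log2 fold change was 0.34 (SE 0.13, adjusted p = 0.0736), so the call was lost, as it was without Lv_NC library 3 (1.06, adjusted p = 0.0549).

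**Figure D3:**
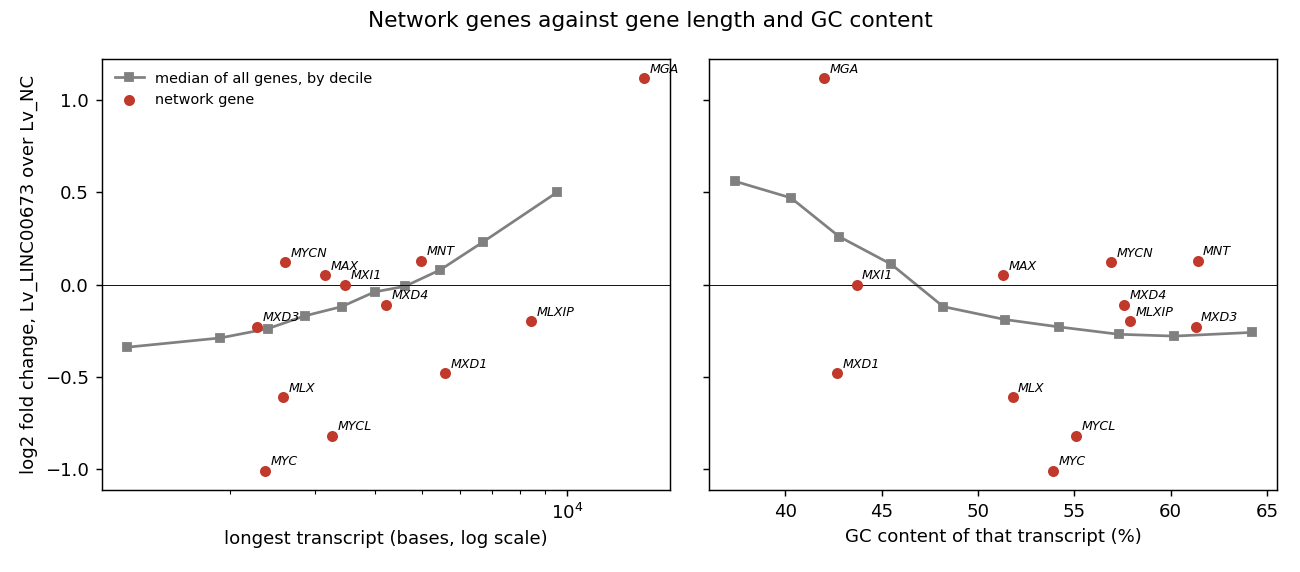
Log2 fold change of the network genes (red) against length and GC content of their longest transcript, with the median of all genes above a mean log2 CPM of 2 in each decile (grey). MGA, at 14439 bases and 42% GC, lies where the medians are positive, while MYC, MYCL and MLX lie below the grey line in both panels.

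MLX, on chromosome 17 from 42567100 to 42573203 (GRCh38), fell. It had 72.4, 61.1 and 70.9 CPM in Lv_LINC00673 and 95.3, 107 and 109 CPM in Lv_NC, or 30.4, 27.0 and 31.0 FPKM in Lv_LINC00673 and 37.3, 40.4 and 42.4 FPKM in Lv_NC. Neither scale showed any overlap. This put MLX at 65.7% of its Lv_NC level (95% interval 56.0 to 77.1%), a log2 fold change of -0.61 (SE 0.10, adjusted p = 0.0061). It was called as lower under all 20 alternatives, with log2 fold changes of -0.67 to -0.36 and adjusted p-values of 1.5e-05 to 0.0495. MLX shares 889 bases with PSMC3IP on the opposite strand.

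MLXIP, which encodes the metabolite-sensing partner of MLX, overlapped between the groups at 76.4, 59.8 and 65.7 CPM in Lv_LINC00673 and 63.3, 85.9 and 82.6 CPM in Lv_NC (log2 fold change -0.20 with SE 0.14, adjusted p = 0.33). The tables hold a second, numbered row for MLXIP, at 56.2, 59.5 and 58.4 CPM in Lv_LINC00673 and 71.7, 65.6 and 67.9 CPM in Lv_NC. That row did not overlap between groups and did not pass with TMM scaling (log2 fold change -0.24 with SE 0.09, adjusted p = 0.0722), but was called lower with the offset (-0.32, adjusted p = 0.0246). No source used here says how reads were shared between the rows, so the level of MLXIP is uncertain; with the rows summed, an alternative chosen after seeing the data, it was again not called. MLXIPL, the liver-type counterpart also named ChREBP, had 5, 4 and 10 counts in Lv_LINC00673 and 0 in each Lv_NC library, and was filtered out.

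**Figure D4:**
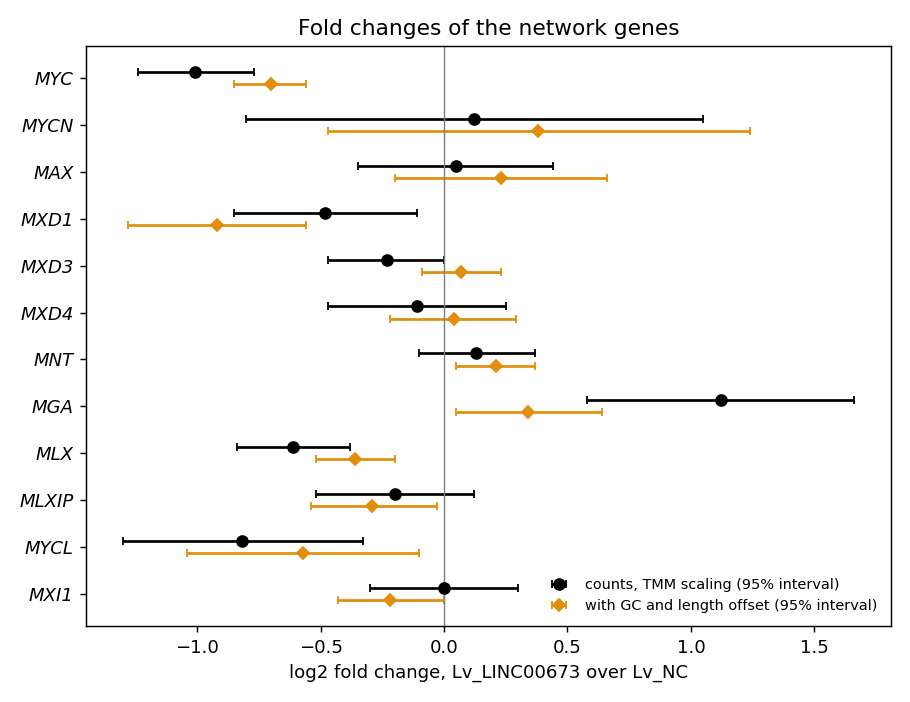
Log2 fold change of Lv_LINC00673 over Lv_NC for the 10 members, MYCL and MXI1, from counts with TMM scaling (black) and with the GC and length offset (orange); bars are 95% intervals. MYC and MLX lie below 0 in both fits, MGA is at 1.12 in one and 0.34 in the other, and MXD1 is at -0.48 and -0.92.

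The order of the members by FPKM was alike at the extremes. In Lv_LINC00673 it ran MYC, MXD3, MAX, MLX, MLXIP, MNT, MXD4, MGA, MXD1 and MYCN, and libraries overlapped between MAX and MLX and between MLXIP and MNT. In Lv_NC it ran MYC, MLX, MXD3, MAX, MLXIP, MNT, MXD4, MXD1, MGA and MYCN, with overlap between MXD3 and MAX and between MGA and MYCN. MYC made up 42.5, 41.4 and 42.3% of the summed FPKM of the 10 genes in Lv_LINC00673 and 53.1, 56.2 and 58.3% in Lv_NC.

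By the root mean square distance of centred log2 CPM over the 6 libraries, the genes closest to MYC were MED30, NFKBIA, GADD45B and FTL, at 0.0317, 0.0381, 0.0508 and 0.0512. MED30, a Mediator subunit gene, lies on chromosome 8 from 117520713 to 117540262, outside the 2 Mb around MYC. It had 31.4, 25.5 and 28 CPM in Lv_LINC00673 and 49.1, 62.2 and 60.3 CPM in Lv_NC (log2 fold change -1.02 with SE 0.13, adjusted p = 0.00387). NFKBIA encodes an inhibitor of NF-kappaB, GADD45B a stress-induced protein and FTL the ferritin light chain, whose many pseudogenes make its count uncertain; their log2 fold changes were -1.03, -0.95 and -0.93. This likeness is a description over 2 groups of 3 libraries. As the genes were picked by it from the same libraries, their fold changes and p-values follow from that choice.

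Genes that MYC is known to activate fell more often than they rose. Of 48 tested, 24 fell, 6 rose and 18 did not pass, with a median log2 fold change of -0.33 against 0.05 over all tested rows. Among all tested rows 12.5% fell and 14.3% rose. With the offset 18 fell, 6 rose and the median was -0.09, against 0.04 over all genes. That fit called 15.9% of all its genes lower and 14.7% higher. On either FPKM scale 13 fell, where 1210 (plus 1) and 1205 (plus 0.1) of all 21933 tested rows fell. Only 1 rose without Lv_LINC00673 library 2 or 3 or Lv_NC library 2 or 3. In those fits 1453, 1658, 2100 and 1578 of all tested rows rose. The lists here and below were chosen with earlier results of these data known, and their counts describe these libraries only. RRP9, which encodes a small nucleolar ribonucleoprotein component, fell to 119 ± 8.82 CPM in Lv_LINC00673, against 191 ± 7.64 CPM in Lv_NC (SD, n = 3 each; log2 fold change -0.68, adjusted p = 0.00399). PPAN, a ribosome assembly gene, fell to 30.3, 65.9 and 42.1 CPM in Lv_LINC00673, against 85.8, 70.1 and 107 CPM in Lv_NC (log2 fold change -0.93 with SE 0.28, adjusted p = 0.0429). Its call was lost in 12 of 20 alternatives, the offset among them (-0.55, adjusted p = 0.395), and without any library other than Lv_LINC00673 library 2. The 2 named genes that rose were NOP58, a core nucleolar protein gene (51.0 ± 8.93 CPM in Lv_LINC00673 and 22.7 ± 6.14 in Lv_NC; log2 fold change 1.17, adjusted p = 0.00737), and TFRC, the transferrin receptor gene (185 ± 31.8 CPM in Lv_LINC00673 and 100.4 ± 32.9 in Lv_NC; 0.88, adjusted p = 0.0212). With the offset these were 0.95 and 0.42. TFRC lost its call without Lv_LINC00673 library 2 or 3 or Lv_NC library 2 or 3 (adjusted p = 0.0795, 0.0623, 0.0507 and 0.0841).

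Of 13 tested genes that MYC is known to repress, 3 fell, 2 rose and 8 did not pass, with a median log2 fold change of -0.14. Among all tested rows 12.5% fell and 14.3% rose. With the offset 3 fell and 0 rose; 1 rose without Lv_LINC00673 library 2 or 3 or Lv_NC library 2, and 0 without Lv_NC library 3. GADD45A, a growth arrest and DNA damage gene, fell to 205 ± 14.7 CPM in Lv_LINC00673, against 411 ± 25.3 in Lv_NC (log2 fold change -1.0 with SE 0.09, adjusted p = 0.0014), and CDKN1A, encoding the cell cycle inhibitor p21, fell to 179 ± 15.1 CPM in Lv_LINC00673, against 281 ± 5.16 in Lv_NC (-0.66, SE 0.09, adjusted p = 0.00412). The integrin gene ITGB1 and the matrix gene THBS1 rose with log2 fold changes of 0.59 and 0.43 (adjusted p = 0.0398 and 0.0115), and with the offset were not called, at 0.17 and 0.04 (adjusted p = 0.107 and 0.565). THBS1 was also not called without Lv_NC library 3 (adjusted p = 0.0521), nor ITGB1 without Lv_LINC00673 library 2 or 3 or Lv_NC library 2 or 3 (0.143, 0.108, 0.0885 and 0.0973).

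Genes listed with MLXIP and MLX moved in both directions. The list is broad, and not all of its genes are established targets of this pair. It holds the transcription factor genes TFEB, TFE3 and MITF and the metabolic genes PKLR, ACACA and FASN. Of 10 tested, 5 rose, 3 fell and 2 did not pass, with a median log2 fold change of 0.25. Among all tested rows 14.3% rose and 12.5% fell. With the offset 5 rose, 4 fell and the median was 0.32, and without Lv_LINC00673 library 2 only 1 fell. The 3 that fell at the main settings were TFEB, PFKFB3 and HK2, named after their values were seen. Their log2 fold changes were -0.68, -0.65 and -0.34 (adjusted p = 0.0144, 0.00432 and 0.0188). With the offset these were -0.39, -0.52 and -0.36, all still called. The arrestin-domain genes TXNIP and ARRDC4, the standard readouts of MondoA activity, both rose. With listed genes going both ways, MondoA activity itself was not tested. ARRDC4, whose E-box is printed above, had 10.4, 13.9 and 12.3 CPM in Lv_LINC00673 and 5.87, 4.39 and 4.62 CPM in Lv_NC (log2 fold change 1.29 with SE 0.18, adjusted p = 0.00447; with the offset 0.99). TXNIP, which restrains glucose uptake, had 77.8, 131 and 141 CPM in Lv_LINC00673 and 57.6, 46.2 and 50.4 CPM in Lv_NC (1.18, SE 0.21, adjusted p = 0.00697; with the offset 1.00). Neither gene overlapped between the groups, and each was called as higher under all 20 alternatives. The transcription factor gene MITF and the fatty acid synthesis gene ACACA rose with log2 fold changes of 0.98 and 0.86 (adjusted p = 0.0099 and 0.00946; with the offset 0.54 and 0.57).

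Among genes that encode coactivators used by MYC, 6 of 16 rose, 3 fell and 7 did not pass, with a median log2 fold change of -0.16. This compares with 14.3% of all tested rows that rose and 12.5% that fell. With the offset 4 went each way, against 14.7% higher and 15.9% lower over all genes of that fit. Without Lv_LINC00673 library 1 the lower ones numbered 6. TRRAP, a scaffold of acetyltransferase complexes that binds MYC directly, stood at 103, 135 and 108 CPM in Lv_LINC00673 and 56.6, 49.1 and 59.0 CPM in Lv_NC (log2 fold change 1.07 with SE 0.13, adjusted p = 0.00312; with the offset 0.82). The acetyltransferase gene EP300 rose (1.25, adjusted p = 0.0014; with the offset 1.08), as did the chromatin remodelling gene BPTF (1.25, adjusted p = 0.00447) and CCNT1, a subunit of the elongation factor P-TEFb (1.04, adjusted p = 0.00924). The offset brought BPTF to 0.63 and CCNT1 to 0.45, both still called.

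Genes listed as corepressors of the MXD proteins and MNT were divided. The list includes ZBTB17, which encodes the MYC partner MIZ1 and not a corepressor. It fell (log2 fold change -0.43, adjusted p = 0.0148, with the offset -0.18) and was named after its values were seen. Of 10 tested, ZBTB17 included, 3 rose, 3 fell and 4 did not pass, with a median log2 fold change of -0.24. Among all tested rows 14.3% rose and 12.5% fell. With the offset 2 were higher and 3 lower, and with library totals alone or on either FPKM scale only 1 was lower. Without Lv_LINC00673 library 2 or Lv_NC library 3 only 1 was higher, and 0 were lower without Lv_LINC00673 library 2 or 3 or Lv_NC library 3 and 1 without Lv_NC library 2. SIN3A, the scaffold that MXD proteins and MNT recruit, stood at 63.5, 82.6 and 69.4 CPM in Lv_LINC00673 and 39.6, 23.1 and 33.3 CPM in Lv_NC (log2 fold change 1.17 with SE 0.19, adjusted p = 0.00592; with the offset 0.93). The corepressor gene NCOR1 and the deacetylase gene HDAC2 rose with log2 fold changes of 1.07 and 0.79 (adjusted p = 0.0172 and 0.0277), and SAP30, another SIN3 complex subunit, fell with -0.46 (adjusted p = 0.0334). With the offset HDAC2 was at -0.02 and SAP30 at -0.08, and neither was called, while NCOR1 was at 0.55. NCOR1 lost its call without Lv_LINC00673 library 2 or Lv_NC library 3 (adjusted p = 0.0612 and 0.0703), HDAC2 without Lv_LINC00673 library 2 or 3 or Lv_NC library 2 or 3 (0.103, 0.0927, 0.0626 and 0.0712), and SAP30 without any library other than Lv_LINC00673 library 1, with library totals alone (0.147) and on the FPKM scales (0.107 and 0.108).

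Of 14 genes that act on the stability of the MYC protein, 5 rose, 2 fell and 7 did not pass (median log2 fold change 0.38). Among all tested rows 14.3% rose and 12.5% fell. With the offset 4 went each way, around a median of 0. The higher ones numbered 2 without Lv_LINC00673 library 2 or Lv_NC library 3 and 3 without Lv_LINC00673 library 3 or Lv_NC library 2; the lower ones were 0 without Lv_LINC00673 library 2 or 3 and 1 without Lv_NC library 2 or 3. DESeq2 called 4 lower, and library totals alone and both FPKM scales called 0. HUWE1, a very large ubiquitin ligase with MYC and MIZ1 among its substrates, rose to 272, 327 and 245 CPM in Lv_LINC00673, against 126, 98.1 and 108 CPM in Lv_NC (log2 fold change 1.35 with SE 0.13, adjusted p = 0.00218; with the offset 1.00). CIP2A, which encodes a stabiliser of MYC, USP28, which encodes a deubiquitinase, and PPP2R5A, a phosphatase subunit gene, rose with log2 fold changes of 0.89, 0.89 and 0.71 (adjusted p = 0.00875, 0.0175 and 0.0209; with the offset 0.30, 0.56 and 0.69). USP28 was not called without Lv_LINC00673 library 2 or 3 or Lv_NC library 3 (adjusted p = 0.0673, 0.06 and 0.0734), nor PPP2R5A without Lv_LINC00673 library 2 or Lv_NC library 2 or 3 (0.0822, 0.0628 and 0.0561).

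The partners of MGA in its Polycomb complex gave no call. Of 10 tested, 0 passed in edgeR's quasi-likelihood test, 1 had an unadjusted p under 0.05, and DESeq2 and limma-voom called 1 and 0. That quasi-likelihood test called 26.8% of all tested rows, and 8721 of all 21933 had an unadjusted p under 0.05. Without Lv_LINC00673 library 1 edgeR called 1 as higher, as did library totals alone, both FPKM scales and the filter at 1 CPM. With the offset 2 were lower, RYBP and YAF2 (log2 fold changes -0.58 and -0.80), named after their values were seen. Over all genes of that fit 15.9% were lower. Of 20 germline and meiotic genes listed with that complex only 9 passed the filter, and 2 of these rose, against 14.3% of all tested rows. TDRD9 and MEIOC passed the filter only through their Lv_LINC00673 libraries. MEIOC was at 0.178, 0.702 and 0.147 CPM there and at 0, 0.0987 and 0 CPM in Lv_NC. Counts and medians of the 9 are thus tilted toward higher values by the filter and are no evidence of a rise. SMC1A, the somatic cohesin subunit and not a germline gene, rose to 97.9 ± 18.2 CPM in Lv_LINC00673, against 48.3 ± 8.61 in Lv_NC (log2 fold change 1.02 with SE 0.16, adjusted p = 0.00557; with the offset 0.65). TDRD9, a helicase gene of the piRNA pathway, had 15, 40 and 21 counts in Lv_LINC00673 and 0 in each Lv_NC library, at least 9.50-fold higher against a floor of 3 counts per library (adjusted p = 0.00881; 0.0879 on the log2(FPKM + 1) scale). The higher ones numbered 4 without Lv_NC library 2, and 1 in DESeq2, with the filter at 1 CPM and on the log2(FPKM + 1) scale. The other 11 listed genes had too few counts for a difference to be detectable at this depth. With TDRD9 at that bound the median of the 9 was 0.92.

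**Figure D5:**
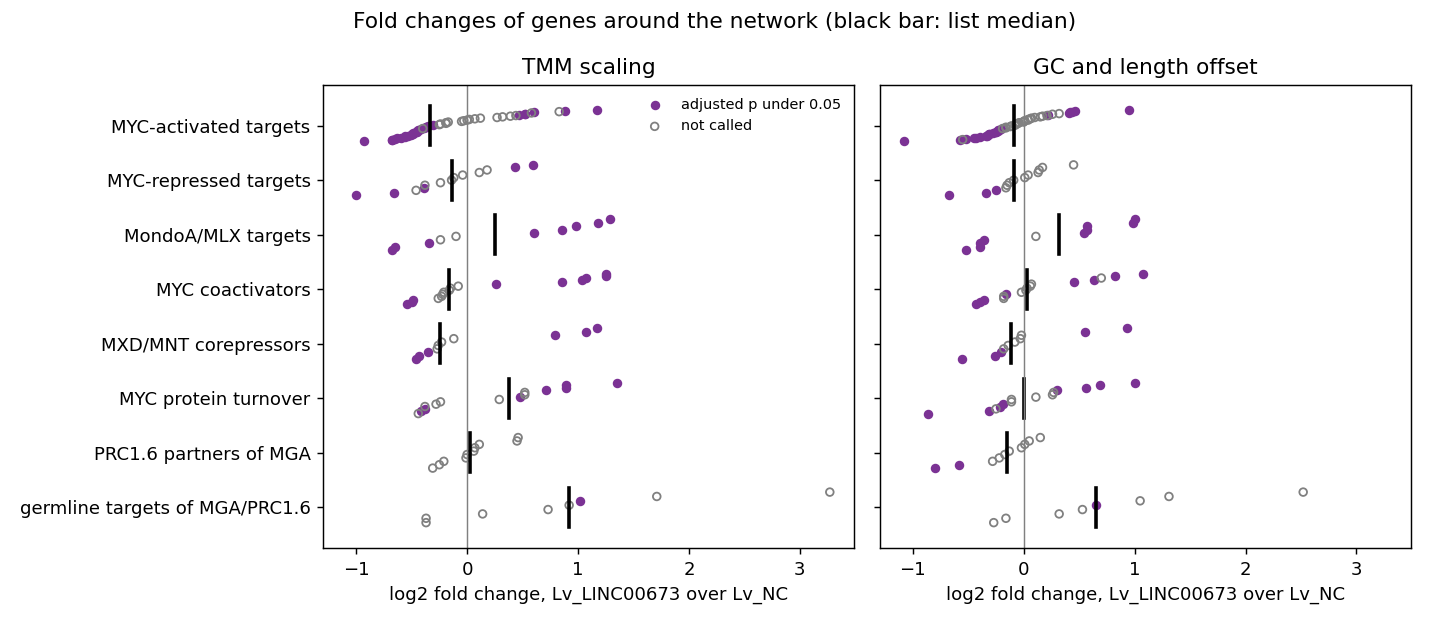
Log2 fold change of each tested gene in 8 lists around the network, with TMM scaling (left) and with the GC and length offset (right); filled points passed an adjusted p of 0.05, bars are medians, and TDRD9, at 0 counts in Lv_NC, is not drawn. The median of the MYC-activated targets is -0.33 on the left and -0.09 on the right. That of the genes listed as MondoA/MLX targets is 0.25 and 0.32.

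Across the genome, tested genes with CACGTG in a promoter window numbered 1620, of which 17% rose and 17.5% fell, with a median log2 fold change of -0.02. Of 12068 genes without it 16.6% rose and 14% fell, with a median of 0.04. With the offset 243 of 1529 genes with the site rose and 271 fell, and 1730 of 11060 without it rose and 1953 fell. The shares that fell were then alike, and the medians were 0.01 and 0.02.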

How the data were processed

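The authors deposited raw read counts and FPKM values per gene for 6 libraries; per the labels' protocols these came from an Illumina TruSeq preparation. The genome build was hg38, per the submitters' processing notes. The sources used here name no aligner, counter, annotation, strand setting or FPKM length model. Columns matched titles by group and number, although the tables spell the first group Lv_Lin00673. Rows with an identifier but no symbol (6056 of 50550, 3.22 to 4.26% of counts) stayed in library sizes and tests. The test was the two-sided robust quasi-likelihood test of edgeR 4.0.16 under R 4.3.3, after filterByExpr and TMM scaling, and p-values were adjusted by Benjamini-Hochberg over 21933 rows; adjusted p-values are from it unless another tool is named, and those on FPKM scales are from limma. Levels are TMM-normalised CPM. SE is the log2 fold change over the root of F. The GC and length offset used natural splines on GENCODE 29 longest transcripts, matched by symbol for 82.7% of tested rows, then TMM. Alternatives were DESeq2 1.42.0, limma 3.58.1 (voom, and log2 of FPKM plus 1 or 0.1), other factors and filters, a replicate block and each library left out. Scripts were tested on simulated data. Places, promoters and overlaps come from RefSeq GRCh38.p14 and GENCODE 29, of the same build. Named were all members, MYCL, MXI1, MLXIPL, LINC00673, up to 4 called genes of largest change per list, and the 4 genes nearest to MYC. The members and lists were chosen with earlier results of these data known.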

Additional observations from a re-analysis of the deposited data

How the results depend on the processing

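MYC and MLX were called as lower, and the count of members called lower stayed within 1.5 times of 2, under all 20 alternatives. The count of members called higher was 1 (MGA), but 2 with library totals alone (MGA and MNT) and 0 with the replicate block. With the offset it was also 1, but the gene was MNT (adjusted p = 0.0479) and MGA was not called (0.0736). Leaving out 1 library gave 0 to 1. All tested rows called numbered 5883, 1208 with the replicate block, and 2716 to 6490 with 1 library left out (2716, 2830, 3631 and 2913 without Lv_LINC00673 library 2, Lv_LINC00673 library 3, Lv_NC library 2 and Lv_NC library 3). The titles share replicate numbers, but same-numbered libraries deviated from their group means with correlations of -0.12, -0.11 and 0.00, so the numbers were not taken as pairs; the offset together with the block was not run. Of the named genes 17 lost their call under the block, at adjusted p-values of 0.051 to 0.117: MGA (0.0573), MYCL (0.0581), PVT1, CCNT1, NCOR1, HDAC2, SAP30, CIP2A, USP28, PPP2R5A, PPAN, TFRC, ITGB1, THBS1, MITF, ACACA and TDRD9. Over all 21933 tested rows the block called 800 higher and 408 lower. Higher and lower calls under it were 1 and 6 among MYC-activated targets, 0 and 2 among repressed ones and 3 and 1 among genes listed with MondoA and MLX. They were 3 and 1 among coactivators, 1 and 0 in the corepressor list, 1 and 0 among turnover genes and 1 and 0 among germline genes. With library totals alone the median over all rows was 0.22, against 0.05 with TMM, and this gave 76.8% of calls as higher, against 53.5%; 66.2% were higher with the block, 74.0% on log2(FPKM + 1) and 74.3% on log2(FPKM + 0.1). Signs turned only for genes not called in that fit: MYCN to -0.01 in limma-voom, -0.03 with the block and -0.53 without Lv_LINC00673 library 1 (0.38 at most with 1 library left out); MAX to -0.15 without Lv_NC library 3 (0.19 at most with 1 library left out); MXD3 to 0.08 on both FPKM scales and 0.07 with the offset; MXD4 to 0.05 with library totals, 0.04 on both FPKM scales and 0.04 with the offset; HDAC2 to -0.02 with the offset; and MXI1, at 0.00, to -0.04 in DESeq2, -0.03 with RLE factors, -0.01 with upper-quartile factors, -0.01 without a filter, -0.22 with the offset, -0.07 without Lv_LINC00673 library 3, -0.12 without Lv_NC library 2 (0.08 at most with 1 library left out) and 0.00 with copy rows summed. The cause of these shifts was not tested. Member counts ran from 65 to 56777 per library, so counting error limits MYCN and the germline genes most.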
